A study of Saccharomyces cerevisiae with 6 samples.

Results

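Of the 6032 genes listed in the deposited tables, 303 (5.02%) had an expected count above 0 and at most 8 in M475R replicate 1, and these 303 genes, chosen by that count alone, are the members described here. M475R replicate 1 was the deepest library, with 4155203 expected counts, so a count of 8 in it is a very low level. The libraries came from the budding yeast Saccharomyces cerevisiae, and all strains were grown in the same medium, Sc-ura with 20 g/l glucose. In one strain ASK10, whose product regulates the glycerol channel Fps1, had the substitution M475R (M475R, replicates 1 and 2). Another was without ASK10 (deletion, replicate 2), and the last had the wild-type gene (WT, replicates 1 and 2). Not analysed here was deletion replicate 1, and the labels do not say how the allele or the deletion was made, whether a strain was 1 clone, or whether replicates were separate cultures. Gene identifiers in the tables name CEN.PK113-7D, a laboratory strain. No strain contrast was made for single genes.

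Yeast growing on glucose represses genes for other carbon sources, for gluconeogenesis and for fatty acid oxidation through Mig1 and through low activity of the kinase Snf1. Entry into meiosis needs both mating-type alleles and starvation, so the meiotic programme, led by the regulators Ime1 and Ndt80, is kept low in dividing haploid cells. Genes next to telomeres lie in chromatin silenced by the Sir proteins or by the histone deacetylase Hda1, and many of them belong to families with near-identical copies.

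The other 4 libraries held 71228 expected counts in M475R replicate 2, 117680 in deletion replicate 2, and 102612 and 51576 in WT replicates 1 and 2. Together they held 343086 rounded counts, 8.26% of the depth of M475R replicate 1. ASK10 itself had 567 and 4 counts in M475R replicates 1 and 2, 0 in the deletion library, and 5 and 7 in WT replicates 1 and 2. The M475R pair showed no detectable excess over sampling noise (chi-square per degree of freedom 1.03 over 2876 genes, p = 0.168), nor did the WT pair (1.00 over 2001 genes, p = 0.436), so each pair was counted as 1 sample. Pairs of libraries from different strains gave 1.40 to 5.75 per degree of freedom. M475R replicate 2 may therefore not be independent of the library that chose the members, and the deletion and WT libraries are those that the choice did not use.

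The members were short and mostly without a gene name. Their counts in M475R replicate 1 ran from 0.5 to 8 with a median of 3, against a median of 275 over all listed genes. Their median length was 330 bases (111 to 1641), against 1101 bases for all listed genes. In FPKM, which divides a count by gene length and library depth, they ranged from 0.15 (the hexose transporter gene HXT10, 1641 bases) to 19.48 (YBL006W-A, 150 bases) with a median of 2.39, against 53.0 for all listed genes. These values describe the choice and support nothing beyond it.

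By annotation, 71 members were named genes of 5034 such genes listed (1.41%), and 102 were loci without a gene name in the reference gene table, of 481 listed (21.2%). The other 130 had identifiers that were not in that table, of 517 listed (25.1%). The deposited tables gave 256 members (84.5%) no biological process term, against 3548 (58.8%) of all listed genes. Most of the genes at the bottom of this library were therefore short reading frames without a gene name, and named genes were the smaller share. A missing process term was common among all listed genes too, so it was not read as a lack of known function.

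Membership moved with gene length. Of the genes of at most 150 bases, 21 of 27 (77.8%) were members. Between 300 and 500 bases the members were 153 of 951 genes (16.1%), and above 500 bases 44 of 4777 (0.921%). The pattern held inside the annotation classes: of named genes up to 500 bases 38 of 612 (6.21%) were members, against 33 of 4422 (0.746%) of longer named genes. For loci without a gene name the values were 95 of 186 (51.1%) up to 500 bases and 7 of 295 (2.37%) above. The part of gene length in the low counts was not tested.

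**Figure D1:**
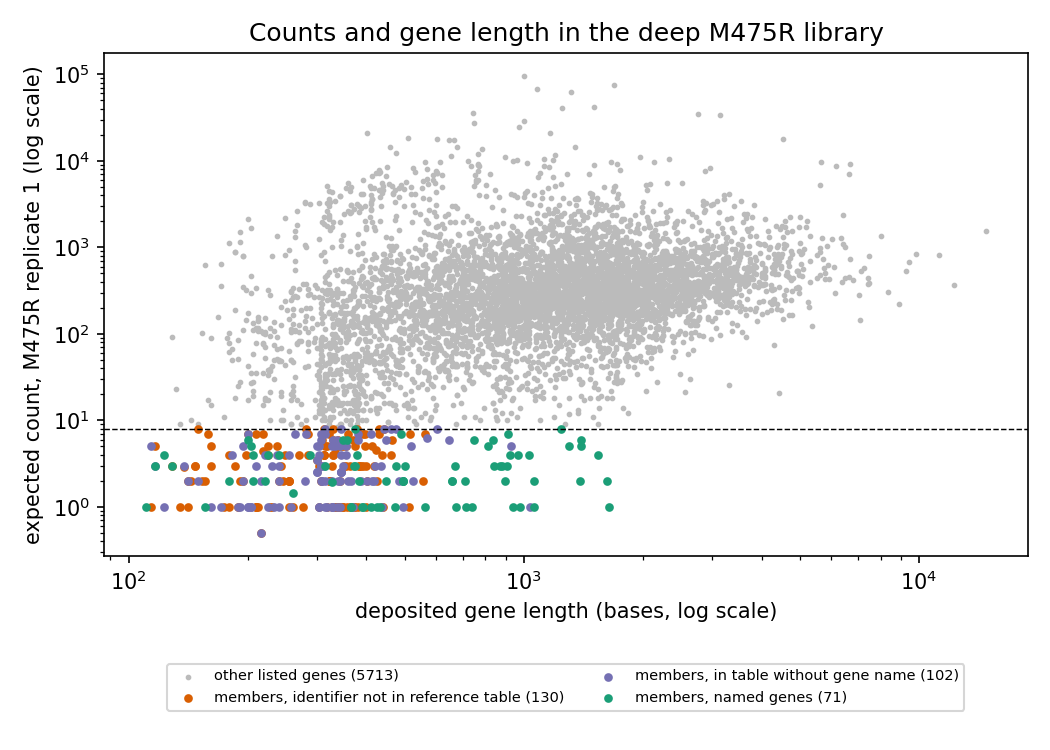
Each point is a listed gene with a count above 0 in M475R replicate 1, by deposited gene length in bases (log scale) and expected count (log scale), with members coloured by annotation class and the limit of 8 counts as a dashed line. The members sit between 111 and 1641 bases, and 85.5% of them are at most 500 bases long.

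The shortest members included genes with some companions that were well read. MFA1 and MFA2 encode the a-factor mating pheromone, and they were members with 1 count (111 bases, 3.82 FPKM) and 3 counts (117 bases, 10.56 FPKM) in M475R replicate 1. Neither had a count in M475R replicate 2, the deletion library or the WT libraries. The 7 other genes grouped with them as a-specific were not members, though that group also held HMRA1 and HMRA2, genes of a mating-type cassette. STE2, the alpha-factor receptor, had 1532 counts (295 FPKM) in M475R replicate 1, 30 in M475R replicate 2, 47 in the deletion library, and 43 and 29 in WT replicates 1 and 2. AGA2, an agglutinin subunit of 264 bases, had 122 FPKM in M475R replicate 1. ASG7 of the same group was lower, with 45 counts (18.7 FPKM) over 630 bases. STE2 was thus read in all 5 libraries, and the pheromone genes in M475R replicate 1 alone. PMP1, a small proteolipid of the plasma membrane proton pump, had 4 counts over 123 bases (13.0 FPKM), and its relative PMP2 had 23 counts over 132 bases (67.5 FPKM), outside the rule; this pair was picked after its values were seen. Other genes of this size were well read: YDR524W-C, of 129 bases and also picked after its values were seen, had 91 counts (276 FPKM) in M475R replicate 1. What sets such genes apart was not tested. A low count was not taken as silence for members of this size, and the members are described as genes with at most 8 counts.

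Length cut the other way too. When as many genes were taken by the lowest FPKM, at or under 4.87, 304 genes were found and 235 were shared, which is 77.6% of the members and 77.3% of the low-FPKM genes. The 69 low-FPKM genes above 8 counts had a median length of 1407 bases, and 54 of them were named genes. Among them, picked after their values were seen, were IME2 (34 counts, 4.32 FPKM), which encodes the meiotic kinase under Ime1, and MLS1 (3.27 FPKM), the malate synthase of the glyoxylate cycle. The 68 members above that FPKM had a median length of 225 bases.

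Few members were read in the other 4 libraries. These held 8.26% of the depth of M475R replicate 1, so many genes with at most 8 counts there would have no count at an unchanged level. The contrast with all listed genes therefore follows from the choice and the depth, and is given as description. Of the 303 members, 60 (19.8%) had at least 1 count in the other 4 libraries pooled, against 5665 (93.9%) of all 6032 listed genes. Pooled counts were 0 for 243 members, 1 for 45, 2 for 13 and 3 for 2, and no member had more than 2 counts in any of these libraries. A count of 0 there allows up to 3 counts among the 343086, taken as a one-sided 95% limit for counting error. Without M475R replicate 2, which may not be independent of the rule, 49 members (16.2%) had a count.

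Detection followed the level in M475R replicate 1. Members with at most 1 count there were detected in the other libraries in 9 of 81 cases (11.1%), and those above 1 and up to 2 counts in 6 of 57 (10.5%). For members above 2 and up to 4 counts the number was 17 of 79 (21.5%), and above 4 up to 8 counts 28 of 86 (32.6%). Beyond the limit, genes above 8 and up to 16 counts were detected in 87 of 133 cases (65.4%), and all 4369 genes above 128 counts were detected. Just inside and just outside the limit, the 15 members above 7 counts had a median of 5.93 FPKM and 7 were detected, and the 15 genes above 8 and up to 9 counts had a median of 7.43 FPKM and 13 were detected.

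**Figure D2:**
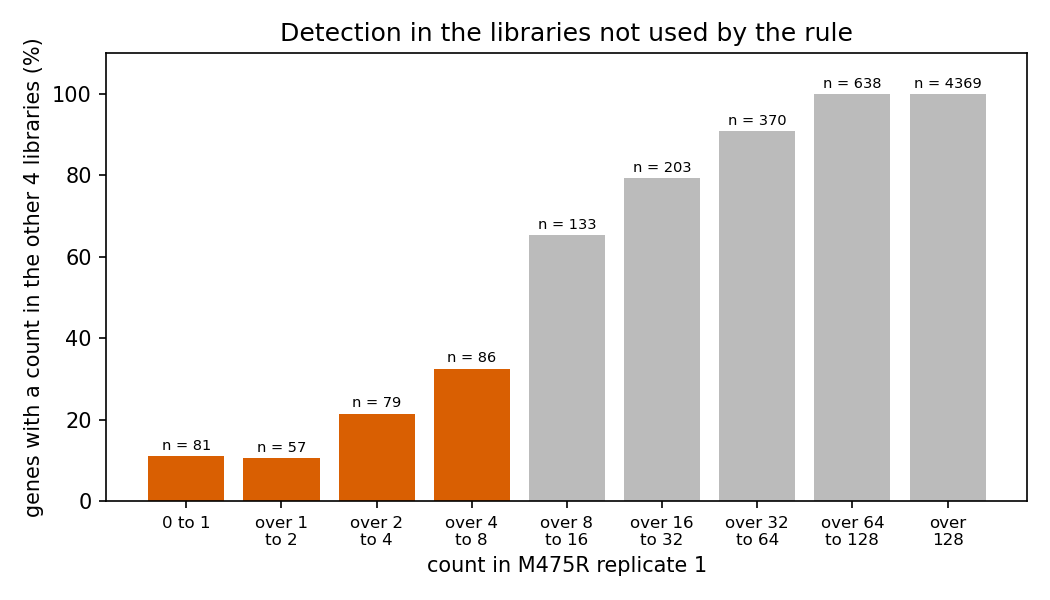
Bars give the percent of genes with at least 1 count in the other 4 libraries pooled, by expected count in M475R replicate 1, with members in orange, genes above the limit in grey and the number of genes above each bar. Detection was 32.6% in the highest bin of members and 65.4% in the next bin.

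The summed level of the members overlapped between the libraries. All members together had 14 counts in M475R replicate 2, 28 in deletion replicate 2, and 22 and 13 in WT replicates 1 and 2. As counts per 1000000 library counts (CPM) this was 197 in M475R replicate 2 (95% exact Clopper-Pearson interval 107 to 330), 238 in the deletion library (158 to 344), and 214 (134 to 325) and 252 (134 to 431) in WT replicates 1 and 2. The intervals overlap throughout and cover counting error only. M475R replicate 1, which chose the members, had 990 counts, or 238 CPM (224 to 254). The ratio of M475R replicate 2 to the WT libraries pooled was 0.866 (0.430 to 1.65) and that of the deletion library to the pooled WT libraries 1.05 (0.614 to 1.77), so a difference within those bounds was not detectable at this depth. Per kilobase, the members had 1.92 CPM over the 4 pooled libraries (exact Poisson interval 1.51 to 2.40), against 122 CPM per kilobase over all listed genes.

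**Figure D3:**
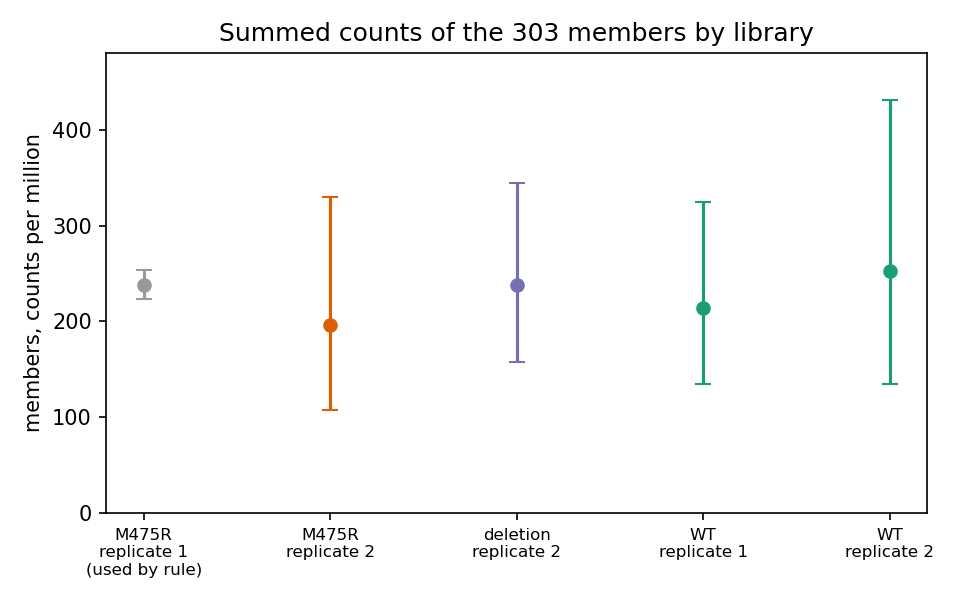
Points are the summed counts of the 303 members per 1000000 library counts (CPM), and bars are 95% exact intervals for counting error. The other 4 libraries lie between 197 and 252 CPM, beside 238 in M475R replicate 1, which chose the members, and their intervals overlap.

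The annotation classes of members overlapped in level in these 4 libraries. Named members had 1.45 CPM per kilobase (0.907 to 2.19), members in the table without a name 1.84 (1.14 to 2.81), and those with no entry there 2.52 (1.75 to 3.53). Over all listed genes the corresponding classes had 125, 43.2 and 206 CPM per kilobase, so identifiers absent from the table include both very low and highly counted genes.

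The members read most often had 2 or 3 pooled counts. MIN7 had 5 counts in M475R replicate 1, 1 in M475R replicate 2, 0 in the deletion library, and 1 each in WT replicates 1 and 2. YNL140C had 6.3 counts in M475R replicate 1, 0 in M475R replicate 2, 1 in the deletion library, and 2 and 0 in WT replicates 1 and 2. Members at 2 pooled counts included SPS22, HXT13, the stress kinase gene RCK1 and AIM26, each with 3 to 6 counts in M475R replicate 1. None of these spreads shows a strain order. On edgeR's filterByExpr for low counts 0 members passed, against 2909 (48.2%) of all listed genes, so no member could have entered a strain test with that filter. That contrast follows from the choice by low count and from the depth, and is given as description.

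Meiosis and sporulation formed the largest group of named members. Of 95 listed genes of this programme, 15 (15.8%) met the rule, against 5.02% of all listed genes and 1.41% of named genes. The gene lists were chosen with earlier results of these data known, so the shares of this and the later lists are description only. Its median in M475R replicate 1, the library used by the rule, was 7.29 FPKM against 53.0 for all listed genes. In the other 4 libraries pooled, the whole list had 12.4 CPM per kilobase (11.4 to 13.5) against 122. That pool holds M475R replicate 2, which may not be independent of the rule. Apart from it, the list had 13.8 (12.0 to 15.8) in the deletion library and 11.5 (10.1 to 13.1) in pooled WT. Its median gene length was 1284 bases, so the list as a whole was not short for the genome. Its 15 members ran from 471 bases (CSM4) to 1392 bases (SPS22), and only SPS22 was longer than that median. By lowest FPKM in place of the count, 35 of 95 (36.8%) were taken. The part of length in these shares was not tested.

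Among regulators and genes of early recombination, 8 of 39 were members, and all 8 had 0 counts in the other 4 libraries. MEI5, a partner of the meiotic recombinase Dmc1, had 3 counts (1.17 FPKM) in M475R replicate 1. HOP2 and MND1, whose proteins act as a pair in Dmc1 strand exchange, had 2 counts each (0.80 and 0.79 FPKM). MAM1, a subunit of monopolin that joins sister kinetochores, had 7 counts (1.95 FPKM). CSM4 (1 count, 0.58 FPKM) and NDJ1 (2 counts, 0.48 FPKM) serve telomere-led chromosome movement, and ECM11, a synaptonemal complex protein gene, had 3 counts (0.84 FPKM). These members span strand exchange, chromosome pairing and segregation. Not all of the programme was that low: SPO12, which also acts in mitotic exit, had 114 FPKM, UME6, the DNA-binding repressor of early meiotic genes, 27.8 FPKM and IME4, an mRNA methyltransferase gene, 27.2 FPKM in M475R replicate 1.

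Among middle genes of the divisions and of the prospore membrane, 7 of 51 were members. SPS22, a spore wall gene, had 5 counts (0.89 FPKM) in M475R replicate 1, 0 in M475R replicate 2, 1 in the deletion library, and 1 and 0 in WT replicates 1 and 2. SPO74, a component of the meiotic spindle pole body plaque, had 8 counts (1.61 FPKM) and 1 pooled count. SPO19, LDS1, PFS1, SMA1 and CDA2, which serve prospore membrane or spore wall formation, had 1 count each (0.26 to 0.39 FPKM), with 1 pooled count for LDS1 and for SMA1. The mitotic cyclin genes CLB1 (95.6 FPKM) and CLB3 (56.7 FPKM), which act in both kinds of division, and OSW7 (53.7 FPKM) were the highest of this list outside the rule. Of the late spore wall genes, 0 of 5 met the rule, and the highest was DIT1, for dityrosine synthesis, at 9.53 FPKM. This set had 3.53 CPM per kilobase (1.61 to 6.70) in the other 4 libraries, the lowest of the meiotic sets, on 9 counts. Its genes had a median length of 1611 bases and escaped the rule by count, not by a high level per length.

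Of the genes of chromosome-end families, 40 of 99 were listed. Of these, 6 (15.0%) met the rule, against 5.02% of all listed genes and 1.41% of named genes. The list goes by gene family and not by place, so its values are not those of chromosome-end genes alone. Of its members, PAU19, PAU21, PAU22 and AAD15 were among the outermost 10 genes of an arm, and PAU17 and DAN1 were not. The places of its non-members are not given here. The list had a median of 16.4 FPKM in M475R replicate 1 and 16.1 CPM per kilobase (14.0 to 18.3) in the other 4 libraries, below 122 over all listed genes. Apart from M475R replicate 2, it had 18.5 (14.8 to 22.8) in the deletion library and 13.3 (10.6 to 16.5) in pooled WT. The flocculin FLO genes, the YRF1 helicase genes and the THI5 family were not analysed here, and the same holds for 8 of 11 COS genes, so these families are described only by the copies listed. Their near-identical copies share reads, and the division of counts among copies is uncertain.

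Of the PAU, DAN and TIR genes, which encode cell wall mannoproteins induced without oxygen, 5 of 12 listed were members. In M475R replicate 1, PAU17 had 8 counts (5.99 FPKM), PAU19 3 (2.25 FPKM), and PAU21 and PAU22 2 each (1.09 FPKM), all with 0 pooled counts. PAU21 and PAU22 have identical deposited values and cannot be told apart. DAN1 had 2 counts (0.57 FPKM) and 1 count in the deletion library. TIR3 (25.4 FPKM), PAU11 (20.2 FPKM) and PAU2 (19.5 FPKM) stood highest in this family. Of the AAD genes, named for aryl-alcohol dehydrogenases, AAD15 alone of 5 listed was a member, with 1 count. No listed COS gene (0 of 3), SNO or SNZ gene of vitamin B6 synthesis (0 of 6), or MAL or IMA gene for maltose and isomaltose use (0 of 9) met the rule. The highest of these were SNZ1 at 46.5 FPKM, COS9 at 40.9 FPKM and MAL33 at 27.6 FPKM.

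**Figure D4:**
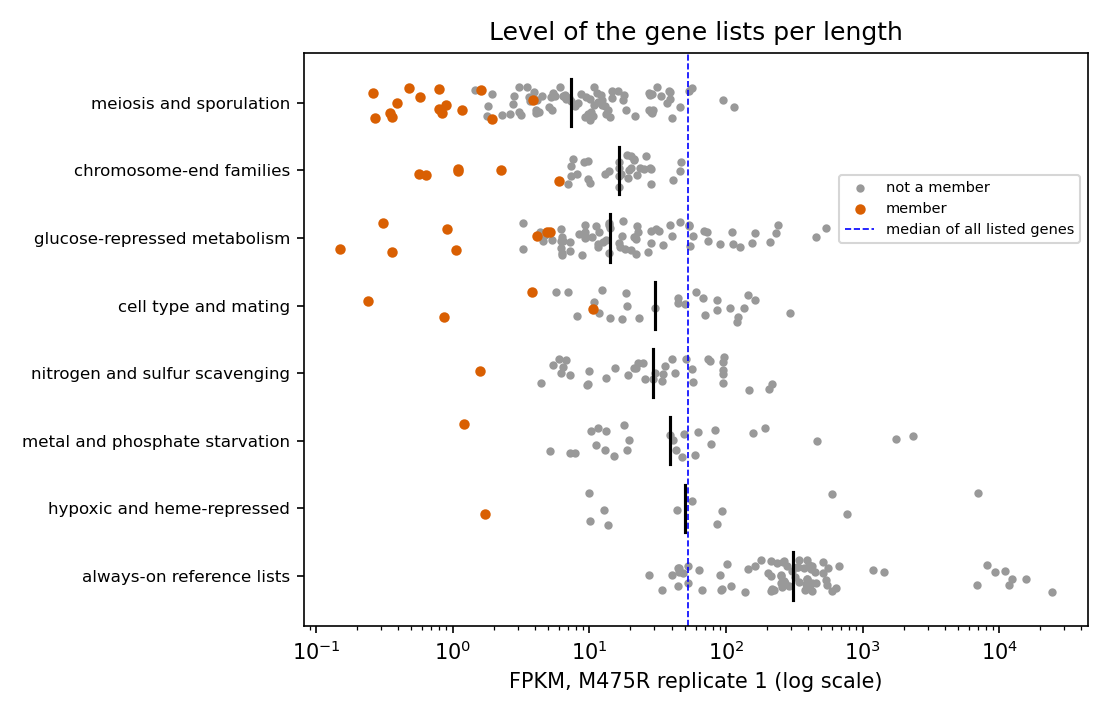
Points are listed genes by FPKM in M475R replicate 1 (log scale), with members in orange, other genes in grey, the median of each list as a black bar and the median of all listed genes (53.0) as a dashed line. PAU13, listed at 0, is in the median but not drawn. The meiosis list has the lowest median (7.29) and the always-on list the highest (311).

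Most listed glucose-repressed genes lay above the rule. Of 79 listed genes, 8 (10.1%) were members, against 5.02% of all listed genes and 1.41% of named genes. The share was uneven: 4 of the 8 were in the set of reserve, stress and sugar alcohol genes and 3 among hexose transporters of low or cryptic use. Gluconeogenesis, the glyoxylate cycle and two-carbon use held 1, and the other sets of the list 0. The list had a median of 14.1 FPKM in M475R replicate 1 and 27.5 CPM per kilobase (25.9 to 29.2) in the other 4 libraries. By library it had 37.1 CPM per kilobase (33.1 to 41.5) in M475R replicate 2, 30.1 (27.3 to 33.1) in the deletion library, and 21.1 (19.0 to 23.3) in the pooled WT libraries. Neither M475R replicate 2 nor the deletion library overlapped pooled WT in these counting intervals, which leave out any spread between cultures. The gap was not particular to this list. The always-on list had 1223 CPM per kilobase (1199 to 1248) in M475R replicate 2 and 886 (872 to 900) in pooled WT, and the metal and phosphate list 156 (141 to 171) in M475R replicate 2 and 236 (224 to 248) in pooled WT. The nitrogen and sulfur list had 55.9 (50.4 to 61.9) in the deletion library and 42.7 (38.5 to 47.2) in pooled WT. The meiosis list had overlapping values of 12.3 (10.2 to 14.7) in M475R replicate 2, 13.8 (12.0 to 15.8) in the deletion library and 11.5 (10.1 to 13.1) in pooled WT.

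Of 17 listed genes for gluconeogenesis, the glyoxylate cycle and the use of ethanol, acetate and lactate, only SFC1, the mitochondrial succinate-fumarate carrier, met the rule, with 4 counts (1.05 FPKM). The textbook glucose-repressed enzymes were above it: FBP1 (fructose-1,6-bisphosphatase) had 5.31 FPKM, PCK1 (phosphoenolpyruvate carboxykinase) 7.20 and ICL1 (isocitrate lyase) 28.2 FPKM in M475R replicate 1, picked after their values were seen. The highest were the lactate dehydrogenase genes DLD1 (459 FPKM) and CYB2 (128 FPKM) and the acetaldehyde dehydrogenase gene ALD4 (113 FPKM).

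Hexose transporters of low or cryptic use had 3 members among 10 listed. HXT10 had 1 count (0.15 FPKM) and HXT14 2 counts (0.31 FPKM), both with 0 pooled counts. HXT13 had 3 counts (0.91 FPKM), with 1 count each in the deletion library and WT replicate 2. Its deposited length of 843 bases was 49.7% of the 1695 bases in the reference table, and it has near-identical relatives, so its count is uncertain. HXT6 and HXT7, high-affinity transporters with the same deposited values, had 14.0 FPKM and HXT5 10.5 FPKM. No gene for peroxisomal fatty acid oxidation (0 of 20), for galactose and sucrose use (0 of 7) or in a mixed set of transporters and other genes for further carbon sources (0 of 7) was a member. Their highest genes were MDH3, the peroxisomal malate dehydrogenase (240 FPKM), SUC2, invertase (68.6 FPKM), and ATO3, an ammonium exporter (73.1 FPKM).

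Among reserve, stress and sugar alcohol genes, 4 of 18 were members. SPG1 (4 counts, 4.11 FPKM) and SPG4 (6 counts, 4.91 FPKM) are needed at high temperature in stationary phase, SIP18 (4 counts, 5.16 FPKM) encodes a desiccation protein, and YIG1 had 2 counts (0.36 FPKM). SPG4 had 1 count in M475R replicate 2 and the others had 0 pooled counts. Other stress genes of this set were far above the rule, with GRE2, a methylglyoxal reductase gene, at 540 FPKM, and the small heat shock genes HSP26 at 231 FPKM and HSP12 at 209 FPKM.

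The next shares stand beside 5.02% of all listed genes and 1.41% of named genes, the class of every gene in these lists. Members were 4 of 31 (12.9%) in the cell type and mating list and 1 of 12 (8.33%) in the hypoxic list. The metal and phosphate list had 1 of 27 (3.70%) and the nitrogen and sulfur list 1 of 39 (2.56%). The 4 of the mating list were MFA1 and MFA2, given above, and 2 more. Among haploid and mating genes 2 of 19 were members, FIG1, a membrane protein of mating cells (3 counts, 0.87 FPKM), and PRM6, a pheromone-regulated gene (1 count, 0.24 FPKM), whereas STE18 and STE4 of the pheromone G protein had 146 and 121 FPKM and HO, the mating-type switching endonuclease gene, 135 FPKM. Of the alpha-specific genes 0 of 3 listed met the rule, with SAG1 at 17.3, STE3 at 14.1 and MF(ALPHA)2 at 12.5 FPKM, below the median of all listed genes. DAL80, a GATA-type repressor of nitrogen use, was the only member among 39 genes for nitrogen and sulfur scavenging (5 counts, 1.59 FPKM). SPL2, which lowers low-affinity phosphate uptake, was the only one among 27 genes for metal and phosphate starvation (2 counts, 1.22 FPKM), in a list where the zinc transporter gene ZRT1 reached 2348 FPKM. ANB1, the hypoxic form of translation factor eIF5A, had 3 counts (1.72 FPKM) beside 12158 counts (6951 FPKM) for its aerobic, near-identical copy HYP2. Of 78 always-on genes for glycolysis, the proteasome, the TRiC chaperonin, RNA polymerase II and the mitotic cycle, 0 were members.

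The lists held 36 of the 71 named members. The 36 had a median of 0.90 FPKM and 1.09 CPM per kilobase (0.521 to 2.00) in the other 4 libraries, and 8 were detected. The 35 named members outside the lists had a median of 1.69 FPKM and 2.00 CPM per kilobase (1.03 to 3.49), and 8 were detected. The 232 without a name had a median of 2.85 FPKM and 2.21 CPM per kilobase (1.66 to 2.87), and 44 (19.0%) were detected. These intervals overlap. The 35, chosen for mention after their values were seen, included GAT3 and GAT4, GATA-type zinc finger genes (1 count each), HES1, for an oxysterol-binding protein (5 counts), SRX1, sulfiredoxin (2 counts), HUG1, a DNA damage response gene (2 counts), and ZNF1, a regulator of respiratory growth (6 counts). They also included PHO92, a reader of methylated mRNA in meiosis (4 counts), and SPR2, a sporulation-specific gene (2 counts), which the meiosis list did not hold.

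Gene models bear on some of these counts. Of the 173 members matched to the reference table, 9 (5.20%) had a deposited length under 90% of the reference gene's length, introns included, against 260 of 5515 (4.71%) of all matched genes. The shortest was ERP3, for a protein of the secretory pathway, with 129 of 678 bases and 3 counts. HOP2 and MND1, which contain introns, had 657 of 777 and 660 of 743 bases. Members overlapped another protein-coding gene in 8 of 173 cases (4.62%), against 111 of 5339 (2.08%) of the other listed genes. Whether reads were counted by strand is not given in the sources used here, so reads of a member and of a gene on the opposite strand cannot be told apart.

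Along the chromosomes, members were found more often near the ends. Of the listed genes among the outermost 10 of each arm, 16 of 191 (8.38%) were members, against 157 of 5321 (2.95%) of the other matched genes. Of the outermost 5, 9 of 60 (15.0%) were members, and of ranks 6 to 10, 7 of 131 (5.34%). No further rank bin stood above 3.78%. Median gene length was 872 bases at ranks 1 to 5 and 1209 bases beyond rank 10, and of 320 genes annotated in the outermost 10 only those 191 were listed. The 16 comprised PAU19, PAU21, PAU22, AAD15 and HXT13, named above, and 11 loci without a gene name, of which YAR064W, YER188C-A, YMR320W, YHR214C-E and YOL164W-A lay within the outermost 5. Some have the same deposited values as another member and cannot be told apart from it: YAR064W and YHR213W-B (2.5 counts each), PAU21 and PAU22, YHR214C-D and YAR069C (0.5), and YHR214C-E and YAR070C (3.5). Such copies were counted as separate members. Loci without a gene name were members in 21.2% of cases over all positions, and the shares by rank were not divided by annotation class.

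**Figure D5:**
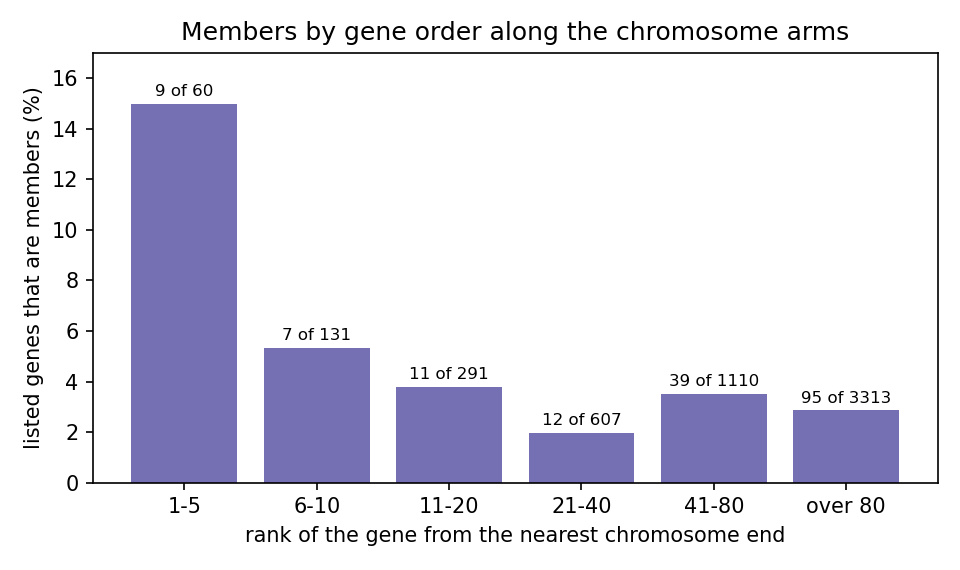
Bars give the percent of listed, matched genes that are members, by rank of the gene from the nearest chromosome end in the order of the reference table, with numbers above the bars. The share is 15.0% for the outermost 5 genes and between 1.98% and 5.34% in the other bins.

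Members also lay next to each other. Of the 173 members placed on chromosomes, 21 (12.1%) had another member as a neighbour, against 277 of 5339 (5.19%) of the other listed genes. They formed 9 pairs and 1 run of 3 (YCL001W-A, YCL001W-B and YCR001W). Pairs with a named gene were SPS22 with YCL048W-A, ZNF1 with YFL051C, HXT10 with YFL012W, HOP2 with YGL034C, AAD15 with YOL164W-A, PMP1 with YCR025C, and YIG1 with CSM4. Only the pair of AAD15 and the pairs among YHR213W-A, YHR213W-B, YHR214C-D and YHR214C-E began within the outermost 10 genes. Neighbours can share reads or a small overlap, so the pairs are given as positions only.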

How the data were processed

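RNA was measured by RNA-seq in 6 samples of 3 strains; 5 libraries had columns and were used. The labels' protocols describe fragmented mRNA, copied to cDNA, size-selected and amplified. The submitters' processing notes name BWA and Bowtie with no version; build, annotation and counter are not given in the sources used here. Per the file headers, the 7 full tables give an expression value that the authors deposited as an expected count, not always whole (20 of the members), and an FPKM made by the authors, with 0 set to 0.001. Lengths are nearly all multiples of 3 (99.7%), so they are coding lengths, and the deposited FPKM behaves as if 55 bases were taken off each length. Filtered lists with 22 per-sample columns were not used, and 0 values differed between tables.

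Expected counts were rounded and joined over 6032 genes. Locus tags were looked up in a RefSeq gene table of assembly R64 (5515 matched, 517 did not), used only for names, gene order and reference lengths. Members are genes above 0 and at most 8 in M475R replicate 1. The other 4 libraries were pooled; levels are CPM, and CPM per kilobase, with 95% exact binomial (Clopper-Pearson) or Poisson intervals. The intervals take counts as independent and cover counting error only. PCR can copy a molecule many times, and this was not accounted for. No strain was tested; filterByExpr and TMM came from edgeR 4.0.16 (R 4.3.3), with Python 3.11.15 and scipy 1.17.1. Replicate pairs were compared by a chi-square test over genes whose expected count was 5 or more. Interval code was tested on simulated data.

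The members and the gene lists were chosen with earlier results of these data known. Named genes are, per list group, the first 8 members in written order and the 3 highest non-members by FPKM, members with the highest pooled counts, and ends of ranges; the text prints those that its comparisons use and says where a gene was picked after its values were seen. Alternatives covered the threshold, FPKM ranking, matching, libraries left out, detection count, scaling and the width of the chromosome end.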

Additional observations from a re-analysis of the deposited data

How the results depend on the processing

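Of 83 alternatives over the results above, 54 stayed within the spread set for them and 29 moved. Whether a direction reversed was not assessed. With only identifiers matched to the reference table there were 173 members, and their summed level was 150 CPM in the deletion library, and 112 and 121 CPM in WT replicates 1 and 2. A limit of 4 counts gave 14.7% of members detected and summed levels of 70.2 CPM in M475R replicate 2, 144 in the deletion library, and 78.0 and 116 in WT replicates 1 and 2, and it left 0% of the nitrogen and sulfur list as members. A limit of 16 counts gave 33.7% detected, summed levels of 786, 612, 594 and 620 CPM in M475R replicate 2, the deletion library and WT replicates 1 and 2, 27.4% of the meiosis list and 15.7% of the outermost 10 genes. The lowest genes by FPKM gave 29.6% detected, 463, 595, 633 and 582 CPM in the same order of libraries, and 36.8% of the meiosis list. These sets hold other genes by construction, so their sums are not the same quantity. Requiring 2 or 3 pooled counts left 4.95% or 0.660% of members detected. Leaving out each of the 4 libraries in turn gave 14.2% to 17.5% detected. The outermost 5 genes held 15.0% members. At least 3 counts in any library, in place of filterByExpr, was met by 159 members, 0 of them through the other 4 libraries. No paired analysis was possible because no comparison of strains comes from a test (the chi-square values compare libraries only) and the deletion strain had 1 library. Depth limits every single-gene value: a member at 0 in the other libraries may still hold up to 3 counts in 343086 (one-sided 95% limit).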

Other observations

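A set of 16 genes was listed at 0 in M475R replicate 1 and so fell outside the rule, and 13 of them had at most 1 pooled count in the other 4 libraries. The other 3 were read elsewhere. VBA3, a vacuolar amino acid transporter gene, had 0 counts in M475R replicates 1 and 2, 4 in the deletion library, and 0 and 1 in WT replicates 1 and 2. EMA35 had 0 counts in both M475R replicates, 1 in the deletion library, and 2 and 0 in WT replicates 1 and 2. PRM10, a pheromone-regulated gene, had 0 counts in both M475R replicates, 3 in the deletion library, and 0 in both WT replicates. PAU13 had 1 count, in WT replicate 1. These genes were picked after their values were seen, and no test was made on them.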
